A study of Mus musculus with 9 samples.

Results

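Chemokines are small secreted or membrane-bound proteins, and their receptors are the G protein-coupled receptors through which white blood cells sense them. The set was taken from the symbols of the deposited count table: rows named Ccl, Cxcl, Cx3cl1 or Xcl1 for ligands, and Ccr, Cxcr, Cx3cr1, Xcr1 or Ackr1 to Ackr4 for receptors, with 1 symbol left out by the rule and not reported here. It held 63 of the 55367 symbols, 41 of them ligands and 22 receptors. Of these, 39 passed the filter on low counts (25 ligands and 14 receptors) and entered the test of 15138 genes. The other 24 are accounted for by their counts at the end.

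Bulk RNA was sequenced from mouse left ventricle, sampled so as to hold the infarct core together with its surroundings. The groups were myocardial infarction with BPD treatment (MI+BPD), myocardial infarction alone (MI) and sham surgery (Sham), with 3 libraries each. Both infarcted groups were collected on day 14, whereas no day is given for Sham. The design text places BPD in the proliferative phase of healing, and it names neither the compound behind the letters nor its dose, nor the strain, sex or age of the mice. Sham hearts have no infarct, so any comparison with Sham sets scar and its border against uninjured muscle. Nothing in the labels says that replicates are separate animals, so p-values measure the spread between these libraries, which may be technical.

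As background, inflammatory chemokines are made on demand by stressed, infected or cytokine-exposed cells, whereas homeostatic chemokines are made continuously and place cells within tissues. A chemokine held on vessel walls turns rolling leukocytes into firmly attached ones, and receptor signalling through Gi proteins steers their movement. In the infarcted heart, neutrophils that follow Cxcr2 ligands come early, Ccr2-bearing monocytes follow, and macrophages, dendritic cells and lymphocytes stay through scar formation. The atypical receptors Ackr1 to Ackr4 bind chemokines without Gi signalling and move or remove them. Values below are read counts scaled to library size (CPM) after TMM scaling, which adjusts each library's size for differences in composition, and they are listed for replicates 1, 2 and 3 of each group. Changes are log2 fold changes ± standard error (SE), and adjusted p values are from edgeR's quasi-likelihood test with Benjamini-Hochberg adjustment over all 15138 genes. An adjusted p under 0.05 counted as a call.

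Total counts per library ran from 14451410 to 19269072, and between 41 and 52 members had at least 1 count in a library. Mitochondrially encoded genes took 17.6% to 25.7% of counts in MI+BPD, 11.4% to 18.2% in MI and 34.4% to 35.2% in Sham. The summed CPM of 12 cardiomyocyte markers was 40770 to 62360 in MI+BPD, 24100 to 42910 in MI and 110800 to 115200 in Sham. All 12 fell in both comparisons with Sham, beside 27.8% of all genes in MI+BPD and 31.9% in MI. All 10 fibroblast markers rose in both comparisons, beside 31.8% of all genes in MI+BPD and 37.0% in MI. The 12 B and plasma cell markers reached a summed 2787 CPM in MI 1 against 74.3 and 157 CPM in the other MI libraries. In bulk tissue, fewer cells of a type and less RNA per cell cannot be told apart. Among members, 3 libraries stood apart: MI 1 in Cxcl13 and Ccl8, MI+BPD 1 in Cxcl5 and other neutrophil-attracting ligands, and Sham 3 in Ccl3, Ccl4 and Cxcl10, and values without these libraries are given beside the results they move most.

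Promoter letters are shown for 4 ligands, because Cxcl1, Cxcl2 and Cxcl3 lie in 1 cluster on chromosome 5 and peaked in the same library, and Cxcl10 is the classical interferon-induced CXC ligand. Each sequence is the 250 bases before the RefSeq start on GRCm38.p6, written 5′ to 3′ on the gene's strand. Capitals mark matches to the NF-kappaB consensus (both strands), to TTTC repeated after a gap of 2 bases (both strands, the core of an interferon-stimulated response element) and to TATAAA (the gene's strand alone). The windows are chr5:90890995-90891244 on the plus strand for Cxcl1, chr5:90903649-90903898 on the plus strand for Cxcl2, chr5:90785851-90786100 on the plus strand for Cxcl3, and chr5:92348890-92349139 on the minus strand for Cxcl10.
Cxcl1: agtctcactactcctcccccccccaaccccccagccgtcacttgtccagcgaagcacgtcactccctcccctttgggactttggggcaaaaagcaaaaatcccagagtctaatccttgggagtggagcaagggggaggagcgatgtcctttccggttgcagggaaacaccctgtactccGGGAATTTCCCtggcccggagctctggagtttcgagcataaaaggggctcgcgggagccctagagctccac
Cxcl2: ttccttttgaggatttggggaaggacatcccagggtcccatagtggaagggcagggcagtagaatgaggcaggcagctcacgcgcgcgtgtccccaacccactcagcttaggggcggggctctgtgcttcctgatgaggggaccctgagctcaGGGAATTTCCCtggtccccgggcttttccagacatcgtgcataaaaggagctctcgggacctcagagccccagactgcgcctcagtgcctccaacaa
Cxcl3: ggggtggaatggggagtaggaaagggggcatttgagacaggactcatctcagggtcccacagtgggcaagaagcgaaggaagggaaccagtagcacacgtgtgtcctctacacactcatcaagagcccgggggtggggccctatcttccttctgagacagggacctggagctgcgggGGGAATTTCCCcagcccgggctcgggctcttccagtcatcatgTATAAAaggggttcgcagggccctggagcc
Cxcl10: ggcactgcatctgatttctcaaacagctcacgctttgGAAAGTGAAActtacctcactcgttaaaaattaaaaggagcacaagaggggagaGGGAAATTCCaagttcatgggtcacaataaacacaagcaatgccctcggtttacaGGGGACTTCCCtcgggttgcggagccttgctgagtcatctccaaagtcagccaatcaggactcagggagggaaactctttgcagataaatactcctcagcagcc
The same stretch, GGGAATTTCCC, stands in the promoters of Cxcl1, Cxcl2 and Cxcl3, where it begins 71, 97 and 73 bases before the start and holds 2 overlapping matches to the NF-kappaB consensus. Cxcl10 has GAAAGTGAAA beginning 213 bases before its start, followed by NF-kappaB matches that begin 159, 104 and 103 bases before it. In the cluster that holds Cxcl1, Cxcl2 and Cxcl3, Cxcl5 had no promoter in the RefSeq table and Cxcl15 had no NF-kappaB match. Of the 63 members, 45 had a promoter in the RefSeq table. The NF-kappaB consensus was found in 11 of these 45 (24.4%), against 7.28% of the table's 32536 promoters. The spaced TTTC pair was found in 3 (6.67%) against 2.98%, and TATAAA in 12 (26.7%) against 7.55%. Also scanned, but not marked, were TTGCNNAA and TTCNNNGAA, where N is any base. The first was found in 5 (11.1%) against 9.57%, and the second in 3 (6.67%) against 7.04%, both near the table's share. These matches are letters in a window, and binding was not measured. A member counted as matching if any of its promoters matched. The table's share is per distinct promoter sequence, so the units of these shares differ.

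**Figure D1:**
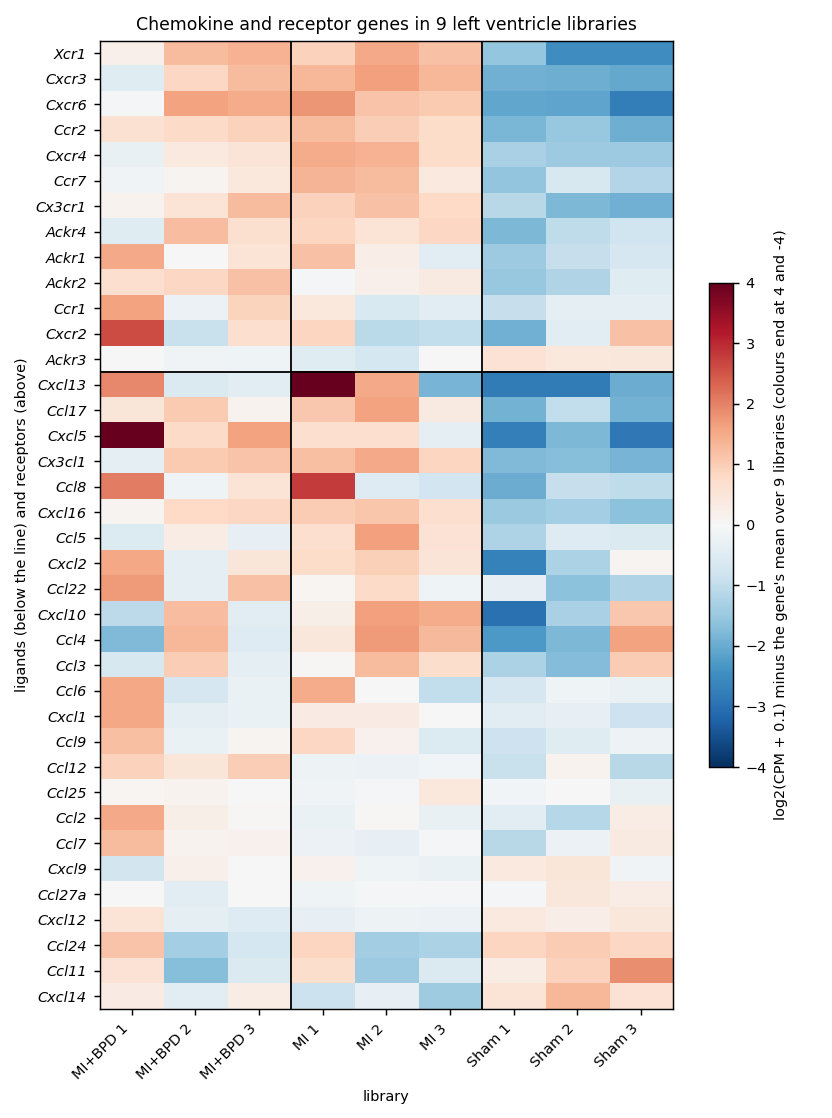
Heat map of 38 of the 39 tested members (rows, receptors above the line and ligands below it, each ordered by the change in MI over Sham) in 9 libraries (columns). Colour is log2(CPM + 0.1) minus the gene's mean over the 9 libraries, and it ends at 4 and −4, which Cxcl13 in MI 1 and Cxcl5 in MI+BPD 1 exceed. Most receptor rows are red across both infarcted groups and blue in Sham, while many ligand rows vary within a group.

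In MI against Sham, 17 of the 39 tested members rose and 3 fell, which is 51.3% called, beside 68.9% of all genes tested. The share called is therefore no higher among members than across the table. The direction was less even: 43.6% of members rose and 7.69% fell, beside 37.0% and 31.9% of all genes. The median change of the members was 1.43, beside 0.075 over all genes. Receptors rose in 10 of 14 and fell in 1 (median 2.23), whereas ligands rose in 7 of 25 and fell in 2 (median 0.89). Of the members that rose, Xcr1, Ccl17, Cxcl13, Cxcr3, Cxcr6, Cxcl5 and Ccr7 had only 1 to 6 counts over the Sham group. These passed the filter on low counts through the infarcted groups and could hardly have been called lower. The direction and the medians, here and in MI+BPD over Sham, are therefore partly set by the filter. Libraries of the groups did not overlap for 24 of 39 members, 21 higher and 3 lower, beside 74.4% of all genes (40.1% higher and 34.3% lower). An unadjusted p under 0.05 was reached by 22 members, beside 71.5% of all genes. In MI+BPD against Sham, which shares the Sham libraries, 18 of 39 members rose and 1 fell, beside 59.6% of all genes called (31.8% higher and 27.8% lower). An unadjusted p under 0.05 was reached by 22 of 39, beside 63.9%, and 21 of 39 did not overlap, 19 higher and 2 lower, beside 68.5% (35.8% higher and 32.7% lower). There, 12 of 14 receptors rose and 1 fell, and 6 of 25 ligands rose.

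In MI+BPD against MI no member passed, and no gene of the 15138 did (0% called, smallest adjusted p 0.369). At an unadjusted p under 0.05 there were 9 of 39 members (23.1%), 5 higher and 4 lower, beside 13.5% of all genes. The libraries did not overlap for 7 of 39 members, 4 higher and 3 lower, beside 13.9% of all genes (6.63% higher and 7.32% lower). DESeq2 called 48 genes in this comparison and no member. Limma-voom with quality weights called 1063 genes, among them Ackr2, Ackr3 and Ccl12 as higher and Ccl5 and Cxcr4 as lower. Without MI replicate 3 the quasi-likelihood test called 1353 genes, among them Ackr3 as higher and Cxcr4 as lower. The values of each of these members follow by role.

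**Figure D2:**
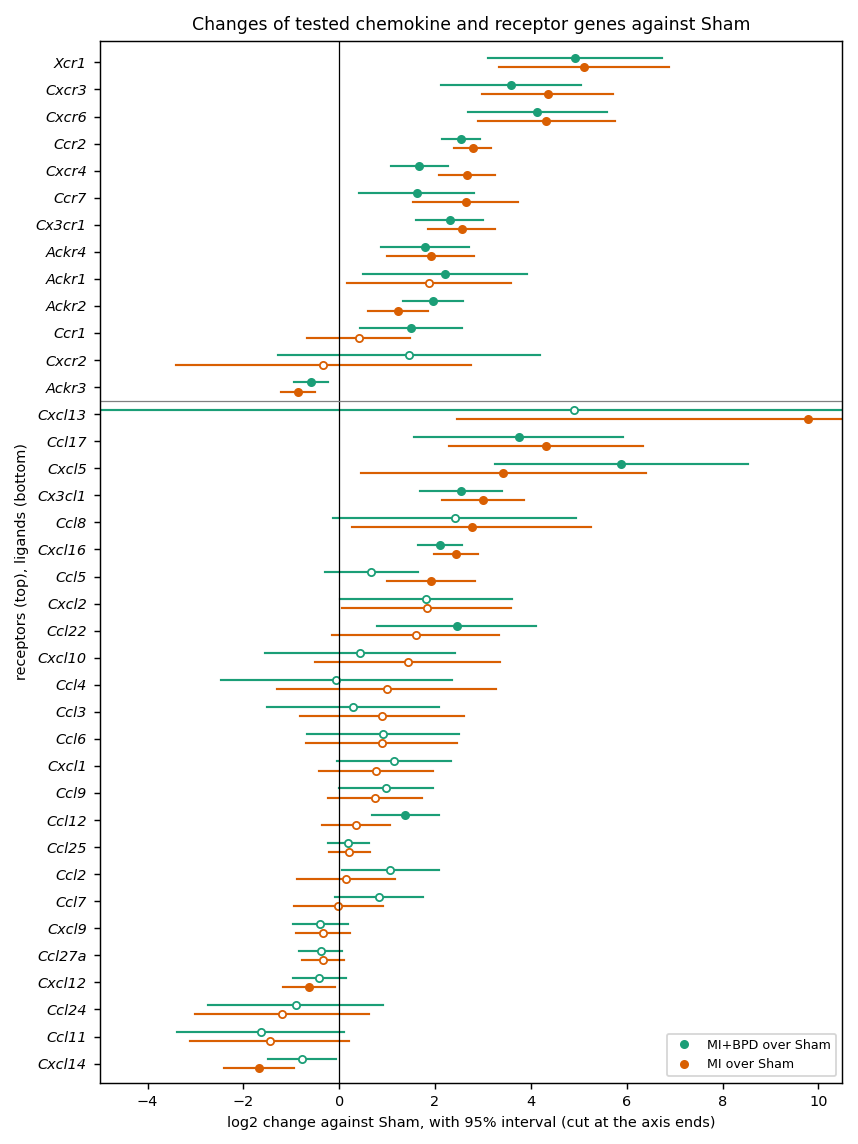
Log2 change of 38 of the 39 tested members in MI+BPD over Sham (green) and MI over Sham (orange), receptors at the top and ligands at the bottom. Points are estimates, lines are 95% intervals and filled points passed at an adjusted p under 0.05. The 2 comparisons share the 3 Sham libraries. Intervals of Ccr2, Cx3cr1, Cx3cl1 and Cxcl16 are narrow and lie to the right of 0, while Cxcl13 spans most of the axis.

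In MI over Sham the monocyte receptor Ccr2 rose, while its 3 tested ligands did not pass under TMM scaling of all libraries. Ccr2, the receptor that releases inflammatory monocytes from bone marrow and draws them to injured tissue, had 29.7, 33.6 and 37.3 CPM in MI+BPD, 47.1, 38.9 and 32.8 CPM in MI, and 5.49, 6.82 and 4.96 CPM in Sham. Every infarcted library lay above every Sham library, and the infarcted groups overlapped each other. Ccr2 rose by 2.79 ± 0.17 in MI over Sham (adjusted p = 8.49e-06) and by 2.55 ± 0.17 in MI+BPD over Sham (adjusted p = 1.51e-05), and MI+BPD differed from MI by −0.24 ± 0.15 (95% interval −0.57 to 0.09). Its main ligand Ccl2 had 11.5, 4.72 and 4.06 CPM in MI+BPD, 3.29, 4.11 and 3.22 CPM in MI, and 2.93, 1.75 and 4.88 CPM in Sham. MI+BPD 1 was the highest of the 9, and the other 8 libraries overlapped across groups. Ccl2 changed by 0.14 ± 0.46 in MI over Sham (adjusted p = 0.799), and by 1.06 ± 0.45 in MI+BPD over Sham (adjusted p = 0.0666). Without MI+BPD replicate 1 the value for MI+BPD over Sham was 0.42 (adjusted p = 0.328), whereas it passed without MI+BPD replicate 3 (1.33, adjusted p = 0.0401) and without Sham replicate 3 (1.52, adjusted p = 0.0341). Ccl2 also passed there when all libraries were scaled by library totals alone instead of TMM (1.55, adjusted p = 0.00753).

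Ccl12, a Ccr2 ligand of the mouse, was highest in MI+BPD. It had 5.69, 4.16 and 5.94 CPM in MI+BPD, 2.53, 2.48 and 2.71 CPM in MI, and 1.55, 3.24 and 1.30 CPM in Sham. The 3 MI+BPD libraries lay above all other libraries, and MI and Sham overlapped. The difference between MI+BPD and MI was 1.03 ± 0.29 (unadjusted p = 0.0057, adjusted p = 0.369), which did not pass. Ccl12 rose in MI+BPD over Sham by 1.38 ± 0.31 (adjusted p = 0.00442), and its value in MI over Sham was 0.35 ± 0.32 (adjusted p = 0.343). Without Sham replicate 2, the highest Sham library, the value in MI over Sham was 0.85 and passed (adjusted p = 0.0140). With all libraries scaled by library totals alone instead of TMM, it was 1.08 and also passed (adjusted p = 0.00895). Ccl7, the other Ccr2 ligand of the same gene cluster, lay at 3.18 to 7.07 CPM in MI+BPD, 2.28 to 2.71 CPM in MI and 1.28 to 3.74 CPM in Sham. Ccl7 passed in no comparison under TMM scaling of all libraries. In MI+BPD over Sham it passed without Sham replicate 3 (1.26, adjusted p = 0.0437) and when scaled by library totals alone (1.33, adjusted p = 0.00892). Its MI+BPD libraries all exceeded its MI libraries, with a difference of 0.85 ± 0.39 (unadjusted p = 0.0551). The 16 macrophage and monocyte markers summed to 959 to 1255 CPM in MI+BPD, 732 to 1270 CPM in MI and 349 to 438 CPM in Sham. Of these, 13 of 16 were called higher in MI than in Sham, beside 37.0% of all genes, and none was at 0 in any group. Their part in the Ccr2 result was not tested.

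Ccr1, found on monocytes and macrophages, binds several inflammatory ligands. Ccr1 had 14.4, 3.90 and 8.79 CPM in MI+BPD, 6.29, 3.01 and 3.41 CPM in MI, and 2.38, 3.59 and 3.58 CPM in Sham, and MI overlapped Sham while MI+BPD 1 was highest. Ccr1 changed by 0.41 ± 0.48 in MI over Sham (adjusted p = 0.463), and by 1.08 ± 0.44 in MI+BPD over MI (unadjusted p = 0.0352, adjusted p = 0.369). It rose in MI+BPD over Sham by 1.49 ± 0.47 (adjusted p = 0.0215), a call that ended without MI+BPD replicate 1 (0.95, adjusted p = 0.0833) and when any 1 Sham library was left out (adjusted p between 0.0514 and 0.0769).

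Among the ligands of Ccr1, Ccl5, which T cells, natural killer cells and platelets release, had 0.958, 1.80 and 1.12 CPM in MI+BPD, 2.34, 4.68 and 2.21 CPM in MI, and 0.549, 0.962 and 0.915 CPM in Sham. MI lay above both other groups in every library, and MI+BPD overlapped Sham. Ccl5 rose in MI over Sham by 1.91 ± 0.41 (adjusted p = 0.00243), while MI+BPD differed from MI by −1.24 ± 0.37 (unadjusted p = 0.00773, adjusted p = 0.369) and from Sham by 0.67 ± 0.43 (adjusted p = 0.209). The myeloid Ccr1 ligands Ccl6 and Ccl9 had no call in any comparison under the quasi-likelihood test of all libraries with TMM scaling. Ccl6 had 68.9, 14.6 and 19.4 CPM in MI+BPD, 65.6, 23.1 and 11.6 CPM in MI, and 14.6, 20.6 and 19.3 CPM in Sham, and Ccl9 had 40.8, 14.6 and 18.8 CPM in MI+BPD, 31.1, 19.9 and 11.9 CPM in MI, and 9.88, 12.6 and 15.1 CPM in Sham. For both genes MI 1 and MI+BPD 1 were the highest libraries. Of the others, MI 2 lay above Sham for Ccl6, MI+BPD 3 and MI 2 lay above Sham for Ccl9, and the rest lay within or below the range of Sham. Ccl9 passed in MI+BPD over Sham without MI+BPD replicate 2 (1.24, adjusted p = 0.0414). When scaled by library totals alone, Ccl9 passed in MI over Sham (1.505, adjusted p = 0.00938) and in MI+BPD over Sham (1.464, adjusted p = 0.0137).

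Ccl8 acts on Ccr8 in the mouse, and the size of its change in MI over Sham rested on a single library. Ccl8 had 13.7, 2.82 and 4.72 CPM in MI+BPD, 22.8, 2.20 and 1.84 CPM in MI, and 0.732, 1.66 and 1.52 CPM in Sham. All infarcted libraries lay above all Sham libraries. MI 1 alone held 576 of the 670 counts of the MI group (86.0%). The change in MI over Sham was 2.76 ± 1.11 (adjusted p = 0.0489), and without MI replicate 1 it was 0.62 (adjusted p = 0.470). The change in MI+BPD over Sham was 2.41 ± 1.12 (adjusted p = 0.0915). Without MI replicate 1 that same value, 2.41, had an adjusted p of 0.00967. With the first library of MI and of MI+BPD both left out it was 1.48 (adjusted p = 0.00518). Ccl8 in MI over Sham also missed the threshold without each Sham library and without each MI+BPD library.

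Ccl3 and Ccl4, the macrophage inflammatory proteins, turned on Sham 3. Sham 3 held 23 of the 28 Sham counts of Ccl3 (82.1%) and 37 of the 40 Sham counts of Ccl4 (92.5%). Ccl3 lay at 0.479 to 1.69 CPM in MI+BPD, 0.831 to 2.08 CPM in MI and 0.175 to 1.75 CPM in Sham, and Ccl4 at 0.180 to 2.31 CPM in MI+BPD, 1.19 to 2.97 CPM in MI and 0.0915 to 2.82 CPM in Sham. With all libraries the changes in MI over Sham were 0.90 ± 0.76 for Ccl3 (adjusted p = 0.316) and 0.99 ± 1.01 for Ccl4 (adjusted p = 0.406). Without Sham replicate 3 they were 2.63 (adjusted p = 0.0205) and 3.93 (adjusted p = 0.0233).

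The eosinophil-attracting ligands Ccl11 and Ccl24 were low throughout. Ccl11 lay at 0.154 to 1.14 CPM in MI+BPD, 0.204 to 1.27 CPM in MI and 0.915 to 2.90 CPM in Sham. Ccl24 lay at 0.257 to 1.92 CPM in MI+BPD, 0.244 to 1.54 CPM in MI and 1.52 to 1.75 CPM in Sham. For both, the first library of each infarcted group was the one that reached Sham levels. The changes in MI over Sham were −1.45 ± 0.74 for Ccl11 (adjusted p = 0.106) and −1.20 ± 0.80 for Ccl24 (adjusted p = 0.21). Without MI replicate 1 they were −2.43 (adjusted p = 0.0260) and −2.60 (adjusted p = 0.0198). Without MI+BPD replicate 1 both were also called lower in MI+BPD than in Sham, at −2.55 (adjusted p = 0.0308) and −2.18 (adjusted p = 0.0454).

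Cx3cr1, the fractalkine receptor of patrolling monocytes and resident macrophages, and its ligand Cx3cl1, a membrane-anchored chemokine that doubles as an adhesion molecule, rose together against Sham. Cx3cr1 had 26.3, 34.8 and 57.1 CPM in MI+BPD, 45.4, 53.6 and 41.2 CPM in MI, and 11.1, 6.82 and 6.18 CPM in Sham. Cx3cl1 had 19.7, 53.3 and 56.7 CPM in MI+BPD, 59.2, 74.4 and 46.7 CPM in MI, and 7.50, 7.87 and 7.09 CPM in Sham. Neither gene overlapped Sham in any infarcted library, and MI+BPD 1 was the lowest infarcted library for both. In MI over Sham the change was 2.55 ± 0.31 for Cx3cr1 (adjusted p = 0.000127) and 3.01 ± 0.38 for Cx3cl1 (adjusted p = 0.00015). In MI+BPD over Sham it was 2.31 ± 0.31 (adjusted p = 0.000417) and 2.53 ± 0.38 (adjusted p = 0.000698). Between the infarcted groups Cx3cl1 differed by −0.47 ± 0.33 (95% interval −1.21 to 0.27), which the spread within MI+BPD covers.

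Cxcl16 is likewise made as a membrane-anchored molecule, and Cxcr6, its receptor, marks tissue-resident T cells and innate lymphocytes. Cxcl16 had 29.6, 47.6 and 48.7 CPM in MI+BPD, 55.8, 59.5 and 43.9 CPM in MI, and 9.88, 10.7 and 8.84 CPM in Sham. It rose by 2.44 ± 0.21 in MI over Sham (adjusted p = 2.94e-05) and by 2.10 ± 0.21 in MI+BPD over Sham (adjusted p = 8.42e-05), with no overlap between infarcted and Sham libraries. Cxcr6 had 1.02, 3.49 and 3.20 CPM in MI+BPD, 3.96, 2.52 and 2.35 CPM in MI, and 0.183, 0.175 and 0.0762 CPM in Sham, again without overlap with Sham. Cxcr6 rose by 4.32 ± 0.63 in MI (adjusted p = 0.000298) and 4.13 ± 0.64 in MI+BPD (adjusted p = 0.000844). In the transcripts of GENCODE M21, 18.5% of the 31-base words of Cxcl16 also occur in another gene, so part of its count is uncertain.

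**Figure D3:**
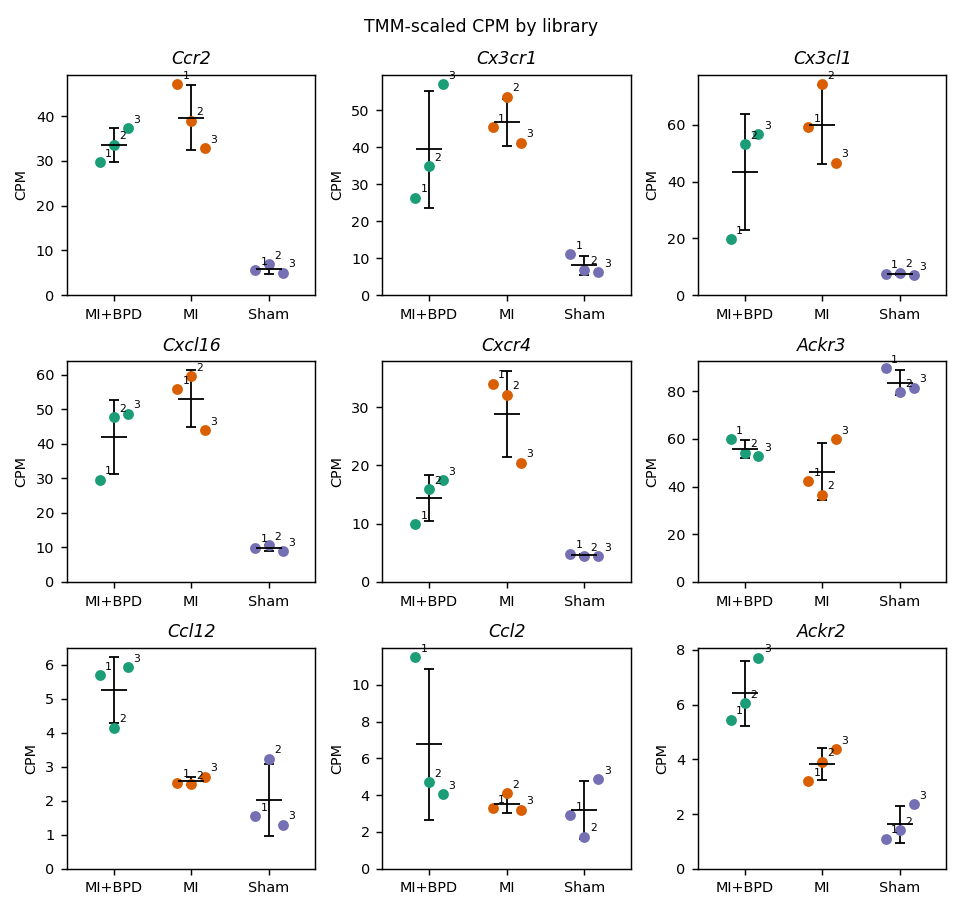
CPM of 9 members by library, with MI+BPD, MI and Sham from left to right in each panel. Points are libraries labelled with their replicate number, and bars are the mean ± SD (n = 3). Ccr2, Cx3cr1, Cx3cl1 and Cxcl16 lie above Sham in all 6 infarcted libraries, Ackr3 lies below it in all 6, and Cxcr4, Ccl12 and Ackr2 separate MI+BPD from MI without overlap.

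Under TMM scaling, Cxcl12 and its scavenger Ackr3 fell in MI over Sham, whereas its signalling receptor Cxcr4 rose. Cxcl12, which retains stem cells and leukocytes in tissues and guides vessels, had 343, 179 and 164 CPM in MI+BPD, 187, 205 and 199 CPM in MI, and 311, 283 and 321 CPM in Sham. Per kilobase of exon it was the highest ligand in Sham, at 37.3 ± 2.42 CPM per kb (SD, n = 3). Cxcl12 fell in MI over Sham by 0.63 on the log2 scale ± 0.24 (adjusted p = 0.0431). Scaling by library totals alone, which moved the median of all genes to 0.81 where TMM gave 0.075, put the change at 0.10 with an adjusted p of 0.643, so its direction depends on the scaling. The call also ended when any 1 MI or Sham library was left out (adjusted p between 0.0684 and 0.106). MI+BPD 1 reached 343 CPM while MI+BPD 2 and 3 lay below all Sham libraries. Without MI+BPD replicate 1, Cxcl12 was called lower in MI+BPD than in Sham (−0.87, adjusted p = 0.000179), whereas with it the value was −0.42 ± 0.24 (adjusted p = 0.169).

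Cxcr4, the signalling receptor for Cxcl12, had 9.94, 15.9 and 17.5 CPM in MI+BPD, 34.0, 32.2 and 20.4 CPM in MI, and 4.85, 4.37 and 4.42 CPM in Sham. The 3 groups did not overlap one another, with MI highest and Sham lowest. Cxcr4 rose by 2.67 ± 0.26 in MI over Sham (adjusted p = 5.09e-05) and by 1.67 ± 0.26 in MI+BPD over Sham (adjusted p = 0.000878). The difference of MI+BPD from MI was −0.997 ± 0.23 (95% interval −1.51 to −0.48), with the smallest unadjusted p of any member (0.00174) and an adjusted p of 0.369. It was called without MI replicate 3 (−1.19, adjusted p = 0.0334) and by limma-voom (−0.96, adjusted p = 0.0384), and by neither DESeq2 nor any other fit that left out 1 library.

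Ackr3, the scavenger that takes up Cxcl12 and lowers its extracellular level, had 60.0, 54.2 and 52.8 CPM in MI+BPD, 42.3, 36.6 and 59.9 CPM in MI, and 89.8, 79.6 and 81.5 CPM in Sham. All infarcted libraries lay below all Sham libraries. Ackr3 changed by −0.85 ± 0.16 in MI over Sham (adjusted p = 0.0011) and by −0.59 ± 0.16 in MI+BPD over Sham (adjusted p = 0.0106), but when scaled by library totals alone these were −0.14 (adjusted p = 0.332) and −0.07 (adjusted p = 0.656). Per kilobase of exon the level of Ackr3 was 16.6 ± 1.13 in MI+BPD, 13.8 ± 3.62 in MI and 24.98 ± 1.61 CPM per kb in Sham (SD, n = 3 each). On that scale Cxcr4 stood at 7.99 ± 2.20 in MI+BPD, 15.97 ± 4.08 in MI and 2.52 ± 0.145 CPM per kb in Sham. Thus Ackr3 was the higher of the pair in Sham and MI+BPD, and the 2 levels differed by less than the spread in MI. The cardiomyocyte markers given above, and the 10 endothelial markers (945 to 1080 CPM in MI+BPD, 842 to 1044 CPM in MI and 1296 to 1501 CPM in Sham, none at 0 in any group), were also lower than in Sham in sum. Of the 10 endothelial markers 5 fell and 1 rose in MI over Sham, beside 31.9% and 37.0% of all genes. Their part in the Ackr3 and Cxcl12 results was not tested.

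Cxcl14, an antimicrobial ligand that epithelia and fibroblasts make, fell in MI and lay between in MI+BPD. It had 11.8, 6.93 and 11.6 CPM in MI+BPD, 5.15, 7.45 and 3.50 CPM in MI, and 13.8, 23.8 and 14.3 CPM in Sham. MI did not overlap Sham, and MI+BPD overlapped MI but not Sham. The changes were −1.68 ± 0.33 in MI over Sham (adjusted p = 0.00137), 0.91 ± 0.32 in MI+BPD over MI (unadjusted p = 0.0197, adjusted p = 0.369) and −0.77 ± 0.32 in MI+BPD over Sham (adjusted p = 0.0597). Its fall in MI over Sham held in every alternative tried, and MI+BPD over Sham passed without MI replicate 2 or 3 (adjusted p = 0.0457 and 0.0438).

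Cxcr3, the receptor of effector T cells for interferon-induced ligands, had 0.419, 1.18 and 1.62 CPM in MI+BPD, 1.70, 2.16 and 1.70 CPM in MI, and 0.0915, 0.0875 and 0.0762 CPM in Sham. The 3 groups were separate, with MI highest and Sham lowest at 3 counts over its 3 libraries. By counts the ratio of MI to Sham was 22.0 (95% counting interval 7.36 to 108) and that of MI+BPD to Sham 13.1 (4.29 to 65.4), and both comparisons passed (adjusted p = 0.000237 and 0.00164). MI+BPD differed from MI by −0.77 ± 0.38 (unadjusted p = 0.0733). Its tested ligands did not pass when all libraries were used. Cxcl9 had 4.85, 9.24 and 8.13 CPM in MI+BPD, 9.18, 7.21 and 6.72 CPM in MI, and 10.6, 11.5 and 7.39 CPM in Sham, with all 3 groups overlapping and a change of −0.35 ± 0.25 in MI over Sham (adjusted p = 0.245).

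Cxcl10, whose promoter is printed above, had 1.68, 8.57 and 2.64 CPM in MI+BPD, 4.24, 11.4 and 10.2 CPM in MI, and 0.366, 1.40 and 7.55 CPM in Sham. Sham 3 held 99 of the 119 Sham counts (83.2%) and lay within the range of both infarcted groups. The change in MI over Sham was 1.43 ± 0.86 with all libraries (adjusted p = 0.165) and 3.26 without Sham replicate 3 (adjusted p = 0.0155). MI+BPD differed from MI by −0.99 ± 0.81 (95% interval −2.82 to 0.84). The 15 T and natural killer cell markers summed to 9.40 to 13.3 CPM in MI+BPD, 9.02 to 17.4 CPM in MI and 2.36 to 4.30 CPM in Sham. In MI over Sham 9 of the 10 tested rose, beside 37.0% of all genes, and none was at 0 in any group. Their part in the results for Cxcr3, Cxcr6 and Ccl5 was not tested.

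Several genes that dendritic cells use rose against Sham from very low counts. Xcr1, which marks cross-presenting dendritic cells, had 0.539, 1.23 and 1.37 CPM in MI+BPD, 0.950, 1.51 and 1.15 CPM in MI, and 0.0915, 0 and 0 CPM in Sham, with 1 count in Sham as a whole. The ratio to Sham was 42.6 (95% counting interval 7.45 to 1700) in MI and 38.1 (6.58 to 1530) in MI+BPD, and both passed (adjusted p = 0.000382 and 0.00107). Ccr7, which leads mature dendritic cells and naive lymphocytes to lymph nodes, had 0.419, 0.513 and 0.660 CPM in MI+BPD, 1.35, 1.26 and 0.644 CPM in MI, and 0.0915, 0.262 and 0.152 CPM in Sham. MI lay above Sham throughout, by 2.64 ± 0.48 (adjusted p = 0.00102). MI+BPD exceeded Sham by 1.62 ± 0.53 (adjusted p = 0.0255), a call that ended without MI+BPD replicate 3 (1.43, adjusted p = 0.0746) and without Sham replicate 1 or 3 (1.35 and 1.54). It differed from MI by −1.02 ± 0.37 (unadjusted p = 0.0206, adjusted p = 0.369).

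Ccl17 and Ccl22, the Ccr4 ligands that flank Cx3cl1 on chromosome 8, are made by dendritic cells and alternatively activated macrophages. Ccl17 had 0.419, 0.667 and 0.305 CPM in MI+BPD, 0.673, 1.02 and 0.368 CPM in MI, and 0, 0.0875 and 0 CPM in Sham, and its ratio to Sham was 24.8 (95% counting interval 4.25 to 999) in MI and 16.5 (2.71 to 677) in MI+BPD. Both comparisons passed (adjusted p = 0.00211 and 0.00867). Ccl22 had 1.80, 0.359 and 1.22 CPM in MI+BPD, 0.515, 0.896 and 0.414 CPM in MI, and 0.366, 0.0875 and 0.152 CPM in Sham. MI+BPD 2 lay within the Sham range, and MI did not overlap Sham. Ccl22 rose in MI+BPD over Sham by 2.45 ± 0.74 (adjusted p = 0.0173), which ended without Sham replicate 2 or 3 (adjusted p = 0.0626 and 0.0618), and its value in MI over Sham was 1.59 ± 0.77 (adjusted p = 0.0916, and 0.0359 without MI+BPD replicate 2). The 11 dendritic cell markers, a list that includes Xcr1 and Ccr7, summed to 124 to 188 CPM in MI+BPD, 182 to 238 CPM in MI and 73.8 to 91.6 CPM in Sham. Of 10 tested, 8 were higher and 1 lower in MI than in Sham, beside 37.0% and 31.9% of all genes, and none was at 0. Their part in these results was not tested.

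Cxcl13, the ligand that gathers B cells into follicles, had the largest estimate of the set and the least even spread. It had 2.52, 0.359 and 0.406 CPM in MI+BPD, 90.7, 1.87 and 0.0921 CPM in MI, and 0, 0 and 0.0762 CPM in Sham. MI 1 held 2291 of the 2339 MI counts (97.9%), MI 3 had 0.0921 CPM, and Sham had 1 count in all. The ratio of MI to Sham by counts was 1160 (95% counting interval 208 to 45800), with an adjusted p of 0.0236 for the fitted change. That interval pools the libraries and covers counting error only, so it leaves out the spread between MI libraries. Without MI replicate 1 the fitted change was 4.84 (adjusted p = 0.0604), and the call also ended when any 1 Sham library was left out (adjusted p between 0.0669 and 0.0931) or MI+BPD replicate 1 was (0.0601). Between MI+BPD and MI the value was −4.88 ± 1.85 (unadjusted p = 0.0283, adjusted p = 0.369), and the libraries overlapped. Without MI replicate 1 that value was 0.09 (adjusted p = 0.987), so its size and sign rested on 1 library.

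The library with high Cxcl13 differed from the others in further genes, of which Adipoq, Plin1 and Retn were picked after their values were seen. The 12 B and plasma cell markers summed to 86.2 to 184 CPM in MI+BPD, 74.3 to 2787 CPM in MI and 17.7 to 25.0 CPM in Sham, with 10 of 10 tested higher in MI than in Sham (beside 37.0% of all genes) and none at 0. In MI+BPD over Sham all 10 estimates were positive, but 1 passed. That gene was the proteoglycan Sdc1 (3.20 ± 0.16, adjusted p = 5.28e-06), which is also read below among the genes that cut or hold chemokines. Cd79a had 14.1 CPM in MI 1 and at most 1.06 CPM in any other library. The Cxcl13 receptor Cxcr5, which B cells carry, had 40 counts in MI 1, 10 and 5 in the other MI libraries, 1 to 5 in MI+BPD and 1 or 2 in Sham. Ccr6, another B cell receptor, had 28 counts in MI 1. The 6 adipocyte markers summed to 239 to 281 CPM in MI+BPD, 173 to 372 CPM in MI and 434 to 619 CPM in Sham, a sum that Fabp4, also an endothelial gene, dominates. Adipoq, the adipocyte hormone adiponectin, had 24.8 CPM in MI 1 and at most 0.184 CPM elsewhere, and Plin1 had 17.2 CPM against at most 0.180 CPM. Plin1 and Retn were at 0 in all Sham libraries. The part of these cell types in the Cxcl13 and Ccl8 results was not tested.

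**Figure D4:**
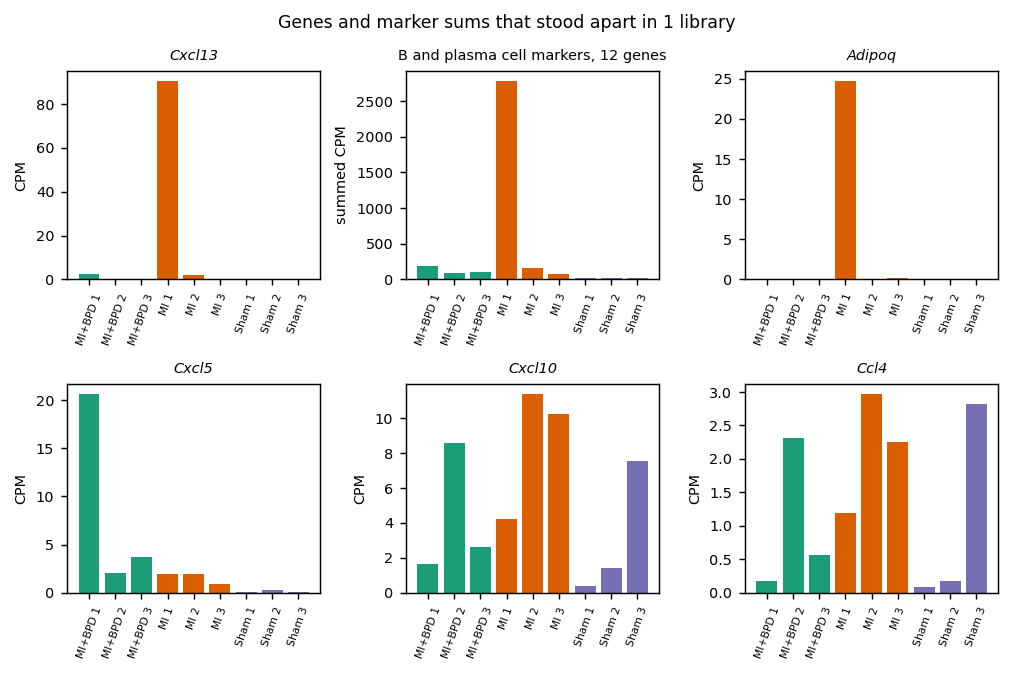
Bars show 4 members and 2 marker readouts in each library (CPM, or summed CPM for the 12 B and plasma cell markers), with MI+BPD in green, MI in orange and Sham in purple. MI 1 holds 90.7 CPM of Cxcl13 together with the B and plasma cell markers and Adipoq, MI+BPD 1 holds 20.7 CPM of Cxcl5, and Sham 3 holds most of the Sham reads of Cxcl10 and Ccl4.

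The Cxcr2 ligands call neutrophils out of blood. Cxcl5, an epithelial and stromal member of the group, had 20.7, 2.05 and 3.76 CPM in MI+BPD, 1.94, 1.91 and 0.875 CPM in MI, and 0.0915, 0.262 and 0.0762 CPM in Sham. All 3 groups were separate, with MI+BPD highest and Sham lowest, but MI+BPD 1 held 345 of the 459 MI+BPD counts (75.2%). Cxcl5 rose in MI+BPD over Sham by 5.89 ± 1.17 (adjusted p = 0.00253) and in MI over Sham by 3.43 ± 1.32 (adjusted p = 0.0418). The first of these calls held in every fit that left out 1 library, at 4.26 without MI+BPD replicate 1 (adjusted p = 0.000444), and the second ended when any 1 MI or Sham library was left out (adjusted p between 0.0628 and 0.115). MI+BPD differed from MI by 2.46 ± 0.77 (unadjusted p = 0.0105, adjusted p = 0.369), and by 0.85 without MI+BPD replicate 1 (adjusted p = 0.780).

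The 3 ligands with the shared promoter stretch were less abundant. Cxcl1 had 6.35, 1.59 and 1.73 CPM in MI+BPD, 2.65, 2.69 and 2.07 CPM in MI, and 1.55, 1.66 and 1.14 CPM in Sham, and Cxcl2 had 1.80, 0.411 and 0.813 CPM in MI+BPD, 0.990, 1.18 and 0.828 CPM in MI, and 0, 0.175 and 0.610 CPM in Sham. Cxcl3 had 24, 1 and 1 counts in MI+BPD, 2, 3 and 1 in MI and 0, 1 and 1 in Sham, and was not tested. MI+BPD 1 was the highest library for all 3 genes, as it was for Cxcl5, and the other MI+BPD libraries lay below all MI libraries for Cxcl1 and Cxcl2. MI lay above Sham in every library for Cxcl1 and Cxcl2, yet neither passed in MI over Sham (adjusted p = 0.218 and 0.0615). Without MI+BPD replicate 1 both did, at 0.76 (adjusted p = 0.0169) and 1.82 (adjusted p = 0.0390), and Cxcl2 also passed without Sham replicate 3 (3.39, adjusted p = 0.0186). In MI+BPD over Sham, Cxcl1 passed without MI+BPD replicate 2 or 3 (adjusted p = 0.0377 and 0.0474), and Cxcl2 without MI+BPD replicate 2 or Sham replicate 3 (adjusted p = 0.0456 and 0.0249).

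Cxcr2 itself had 37 counts in MI+BPD 1 of 49 in the group (75.5%), and ranged over 0.103 to 2.22 CPM in MI+BPD, 0.0814 to 0.594 CPM in MI and 0 to 0.762 CPM in Sham, with no call. In the transcripts, 12.1% of its 31-base words occur in another gene. The 10 neutrophil markers summed to 10.1 to 19.95 CPM in MI+BPD, 9.71 to 70.9 CPM in MI and 4.03 to 10.8 CPM in Sham. Of 5 tested, Csf3r rose in MI over Sham (2.13 ± 0.36, adjusted p = 0.000628) and the others did not pass. Ly6g was at 0 in all MI+BPD and all Sham libraries. MI 1 held the highest neutrophil sum and MI+BPD 1 the highest Cxcr2 ligands. Their part in each other was not tested.

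Of the atypical receptors, Ackr2, which clears inflammatory CC chemokines, was highest in MI+BPD, lower in MI and lowest in Sham. It had 5.45, 6.06 and 7.72 CPM in MI+BPD, 3.21, 3.91 and 4.37 CPM in MI, and 1.10, 1.40 and 2.36 CPM in Sham. No group overlapped another. Ackr2 rose by 1.22 ± 0.28 in MI over Sham (adjusted p = 0.00354) and by 1.96 ± 0.28 in MI+BPD over Sham (adjusted p = 0.000513). The difference of MI+BPD from MI was 0.75 ± 0.24 (unadjusted p = 0.0131, adjusted p = 0.369), called by limma-voom (adjusted p = 0.0387) and not by DESeq2. The 7 lymphatic endothelial markers summed to 206 to 277 CPM in MI+BPD, 136 to 182 CPM in MI and 205 to 232 CPM in Sham. In MI+BPD over MI none of the 6 tested passed. An unadjusted p under 0.05 was reached by 4 of them, all higher, beside 13.5% of all genes. Their part in the Ackr2 result was not tested.

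Ackr4, which clears the Ccr7 and Ccr9 ligands, had 6.53, 21.7 and 14.3 CPM in MI+BPD, 16.6, 13.5 and 16.2 CPM in MI, and 2.56, 4.46 and 5.18 CPM in Sham. Infarcted libraries lay above Sham, by 1.91 ± 0.41 in MI (adjusted p = 0.00235) and 1.79 ± 0.41 in MI+BPD (adjusted p = 0.00467), and MI+BPD 1 was the lowest of them. Ackr1, the chemokine carrier of red cells and venules, had 1.38, 0.411 and 0.660 CPM in MI+BPD, 1.07, 0.529 and 0.276 CPM in MI, and 0.0915, 0.175 and 0.229 CPM in Sham. Ackr1 rose in MI+BPD over Sham by 2.21 ± 0.76 (adjusted p = 0.0301), which ended without MI+BPD replicate 1 (1.60, adjusted p = 0.0958) and when any 1 Sham library was left out (adjusted p between 0.0552 and 0.0869). Its value in MI over Sham was 1.87 ± 0.76 (adjusted p = 0.052), with an adjusted p of 0.0402 with the replicate number as a block and of 0.0196 without MI replicate 3, and it also passed without MI+BPD replicate 1 or 2 (adjusted p = 0.0346 and 0.0425). Ackr1 shares 23.0% of its 31-base words with another gene.

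Ccl25 and Ccl27a, ligands best known from gut and skin, varied least of the tested members by the ratio of the highest to the lowest CPM. Ccl25 lay at 3.50 to 3.90 CPM in MI+BPD, 3.25 to 4.74 CPM in MI and 2.90 to 3.59 CPM in Sham, and Ccl27a at 2.10 to 2.88 CPM in MI+BPD, 2.53 to 2.76 CPM in MI and 2.75 to 3.94 CPM in Sham. Neither passed, and for Ccl27a 57.0% of the 31-base words occur in another gene, so its count is uncertain.

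**Figure D5:**
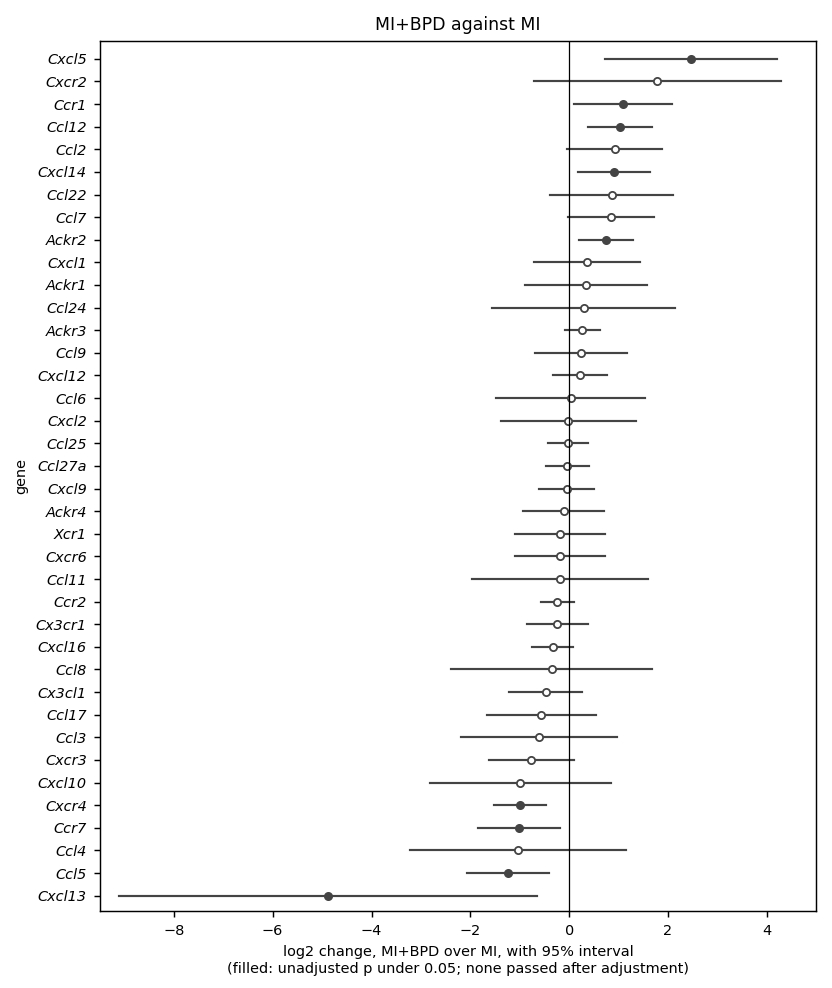
Log2 change of 38 of the 39 tested members in MI+BPD over MI, ordered from highest to lowest. Points are estimates and lines 95% intervals, filled points have an unadjusted p under 0.05, and no member passed after adjustment. Among filled points, Cxcl5 (2.46, and 0.85 without MI+BPD replicate 1), Ccr1 (1.08) and Ccl12 (1.03) lie highest. Cxcl13 (−4.88, and 0.09 without MI replicate 1), Ccl5 (−1.24), Ccr7 (−1.02) and Cxcr4 (−0.997) lie lowest. Cxcr2 (1.78) and Ccl4 (−1.04) lie among them as open points.

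Set beside their ligands, receptors and ligands were not always called together. Cxcr6 and Cx3cr1 rose in MI over Sham together with a ligand. Ccr2, Ccr7, Cxcr3, Cxcr4 and Xcr1 rose without one, although the ligands of Ccr7 and Xcr1 in the set were too low to test. Among neighbouring ligand genes, 1 of the 5 tested among Ccl2, Ccl7, Ccl11, Ccl12, Ccl8 and Ccl1 on chromosome 11 rose in MI over Sham, as did 1 of 5 among Ccl5, Ccl9, Ccl6, Ccl3 and Ccl4. On chromosome 8, 2 of 3 rose among Ccl22, Cx3cl1 and Ccl17. On chromosome 5, 1 of the 3 tested rose among Cxcl5, Cxcl3, Cxcl15, Cxcl1 and Cxcl2, and 0 of 2 among Cxcl9 and Cxcl10. None rose in the other ligand groups, which had at most 1 tested gene each. Over all genes tested, 37.0% rose.

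Summed over members, receptor reads came to 226 ± 29.5 CPM in MI+BPD, 235 ± 16.4 CPM in MI and 123 ± 4.12 CPM in Sham (SD, n = 3 each). Ligand reads came to 447 ± 138 CPM in MI+BPD, 456 ± 98.2 CPM in MI and 408 ± 20.1 CPM in Sham. Without Cxcl12 they came to 218 ± 39.2 CPM in MI+BPD, 259 ± 105 CPM in MI and 102 ± 14.9 CPM in Sham. Of the MI libraries, MI 1 had the highest sum without Cxcl12 (372 CPM), and it held 97.9% of the MI counts of Cxcl13. The sums of MI+BPD and MI differed by less than the spread between libraries.

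Other genes of the pathway were read from lists chosen for their role. Of 38 genes that carry receptor signals, 33 rose and 2 fell in MI over Sham, beside 37.0% and 31.9% of all genes. In MI+BPD over Sham 31 rose and 2 fell, beside 31.8% and 27.8% of all genes. Their median change was 1.14 in MI+BPD over Sham and 1.26 in MI over Sham, beside 0.04 and 0.075 over all genes. Among them were the actin regulator Arpc1b (1.51 ± 0.13 in MI over Sham), the arrestin Arrb1 (1.08 ± 0.10) and the Gi subunit Gnai3 (1.01 ± 0.09). None of the 38 passed in MI+BPD over MI. There Rgs1, which shortens chemokine receptor signalling in lymphocytes, had the smallest p (−1.58 ± 0.37, unadjusted p = 0.00192, adjusted p = 0.369).

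Over all genes tested, 37.0% rose and 31.9% fell in MI over Sham, with a median change of 0.075. Of 16 tested leukocyte adhesion genes, 13 rose in MI over Sham, including the integrin Itgax (3.76 ± 0.30) and the endothelial ligand Vcam1 (2.07 ± 0.20), and none fell. Of 13 genes that cut or hold chemokines, 10 rose and 1 fell, with the proteoglycan Sdc1 (3.24 ± 0.16) and the protease Mmp2, which inactivates Cxcl12 by cleavage (3.88 ± 0.21), at the front. Of 17 inducers of chemokine transcription, 13 rose and 1 fell, among them the NF-kappaB subunit Relb (1.14 ± 0.11). The median change was 1.90 for the adhesion genes, 1.60 for the genes that cut or hold chemokines and 0.73 for the inducers in MI over Sham. In MI+BPD over MI none of these passed. Irf7, an interferon-induced transcription factor, had the smallest p of the inducers there (−1.06 ± 0.19, unadjusted p = 0.000372, adjusted p = 0.369). Among 13 platelet chemokines and related receptors, 8 rose and 1 fell in MI over Sham (median 1.31). The one that fell was Ccrl2, a chemerin-presenting relative of the chemokine receptors (−1.22 ± 0.14), while the chemerin receptor Cmklr1 rose (1.50 ± 0.17).

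The 24 members that did not pass the filter were at or near the limit of counting. No count was found in any library for 6 of them, Cxcr1, Ccl19, Ccl19-ps1, Ccl19-ps3, Ccl21c and Ccl27b, which allows up to 3 counts in a group. A further 8 had 1 to 9 counts over all 9 libraries: Ccl20, Ccl21b and Ccl21d had 1 count each, Ccl26 and Cxcl15 had 2, Ccr8 had 3, all of them in MI+BPD 1, Ccl1 had 5 and Cxcl11 had 9. The remaining 10 were Ccr10, Cxcl17, Ccr9, Ccr4, Xcl1, Cxcl3, Ccr3, Ccr6, Ccl28 and Cxcr5, with 11 to 69 counts in all. Ccr6, a receptor of B cells and type 17 T cells, had 12 counts in MI+BPD, 39 in MI and 0 in Sham, which makes it at least 2.54-fold higher in MI+BPD and at least 6.45-fold higher in MI, taking 3 counts over the Sham group as the floor. Of its MI counts 28 lay in MI 1. Ccr3, the eosinophil receptor, had 17 counts in MI+BPD, 30 in MI and 1 in Sham, and a ratio of 14.9 in MI over Sham (95% counting interval 2.47 to 607), with none of its counts in MI 3. Several of these genes share most of their transcript with a copy: all 31-base words of Ccl21b, Ccl27b and Ccl19-ps3 (100%), 68.7% of Ccl19-ps1 and 58.8% of Ccl19 recur in another gene. Reads of such genes may have been dropped or assigned elsewhere, depending on how multiply mapped reads were counted. Intervals and floors cover counting error only.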

How the data were processed

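Paired-end RNA-seq of 9 mouse left ventricle libraries was read from 1 table of raw read counts per gene symbol, deposited by the authors without normalization. Alignment used STAR, and the genome builds named are mm10, GRCm39 and mm39, per the submitters' processing notes. Which program counted reads, with which annotation and strand option, is not given in the sources used here, so overlapping and antisense genes cannot be told apart. The table's BPD columns were matched to the MI+BPD labels, and 0 sample columns were left unmapped. RNA of an integrity number above 7.0 was sequenced at 150 bp, per the labels' protocols.

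The counts were tested with edgeR 4.0.16 in R 4.3.3. Low genes were removed by filterByExpr (at least 10 counts, 15 in all), TMM factors were applied, and 1 robust quasi-likelihood model per gene took all 9 libraries with group as its term, leaving 6 residual degrees of freedom. Tests were 2-sided and adjusted by Benjamini-Hochberg over 15138 genes. The genes tested held 99.9% of counts, and the procedure was tested on simulated data. CPM are TMM-scaled. Alternatives used DESeq2 1.42.0, limma 3.58.1 (voom with quality weights), other scalings and filters, a replicate block and libraries left out. Ratios to groups of 1 to 3 counts carry 95% exact binomial counting intervals, which assume that reads are independent molecules.

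Promoters came from RefSeq on GRCm38.p6, cut to the 250 bases before the start, and 61 of the 63 member symbols are gene names of GENCODE M21, whose exon unions gave the lengths. Shared sequence was counted as 31-base words of a gene's transcripts that occur in another gene.

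Every member was accounted for in the counts, and 1 tested member is not reported here by name or drawn. All 9 values were given for other members that were called in a comparison or averaged at least 5 CPM in a group. Of other genes, up to 4 of smallest adjusted p per list were named. Members, lists and the naming rule were chosen with earlier results of these data known.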

Additional observations from a re-analysis of the deposited data

How the results depend on the processing

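Across 20 alternatives, 15 of the 20 member calls in MI over Sham and 14 of the 19 in MI+BPD over Sham held in each setting that tested them. The calls that did not were Ackr3, Ccl8, Cxcl12, Cxcl13 and Cxcl5 in MI over Sham, and Ackr1, Ackr3, Ccl22, Ccr1 and Ccr7 in MI+BPD over Sham. Of 2306 member values, 2172 kept their direction or stayed uncalled and their side of the threshold, 55 lost a call, 78 gained one and 1 reversed. The reversal was Cxcl12 in MI over Sham, at 0.10 when scaled by library totals alone. That scaling moved the median of all genes to 0.81 in MI over Sham (0.075 with TMM), to −0.20 in MI+BPD over MI (0.003) and to 0.57 in MI+BPD over Sham (0.04). Of all genes called, 85.6% were then higher in MI over Sham (53.6% with TMM) and 86.8% in MI+BPD over Sham (53.4%), and members were called higher in 25 and 25. The cause of each change below was not tested.

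Members lower in MI over Sham numbered 3, and 5 with limma-voom, 1 with library totals and 6 with the first MI and MI+BPD libraries left out. In MI+BPD over MI, limma-voom called 3 higher and 2 lower where the quasi-likelihood test called 0 and 0. Members lower in MI+BPD over Sham numbered 1, and 2 with DESeq2, 6 with limma-voom, 0 with library totals, 2 with only the groups compared and 4 with the first MI and MI+BPD libraries left out. Leaving out 1 library at a time gave 14 to 18 higher and 2 to 4 lower in MI over Sham, 0 to 1 higher and 0 to 1 lower in MI+BPD over MI (1 and 1 without MI replicate 3), and 15 to 21 higher and 1 to 4 lower in MI+BPD over Sham (4 without MI+BPD replicate 1, and 2 without MI replicate 2 or 3).

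With the replicate number as a block, member counts stayed at 17 and 3, 0 and 0, and 18 and 1, with 10054, 0 and 8457 genes called. In MI over Sham the block called Ackr1 (1.76) and Ccl24 (−1.61), and lost Ccl8 (1.97) and Cxcl12 (−0.62). The numbers are no evidence of pairing: deviations of same-numbered MI+BPD and MI libraries correlated at 0.143, 0.194 and −0.158 across genes. Depth limits the 24 untested members, and a member value of 0 in a group allows up to 3 counts.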
